A study of Arabidopsis thaliana with 12 samples.

Results

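The comparison described here is that of abf1/2/3/4 mutant leaves with wild-type leaves of Arabidopsis thaliana that received no abscisic acid (ABA). It was chosen by label alone and holds 4 of the 12 libraries of the series, 2 replicates of each genotype. Both genotypes are in the Col-0 strain, and the plants were 5 to 6 weeks old. They grew in 65% humidity at 22 °C, in days with 12 h of light. All were sprayed with the ethanol vehicle, so every plant compared had been handled and wetted. RNA came from whole leaves, taken 4 h after the spray, and was read as polyadenylated messenger RNA. The mutant is named for mutations in 4 genes, ABF1 to ABF4. The labels give neither the alleles nor how many plants entered a library, so p-values measure the spread between libraries, which may in part be technical. The other 8 libraries are wild-type and mutant leaves with 50 µM ABA and wild-type guard cell preparations with and without it. They entered the fit for its estimate of the spread and are used below where a result is followed into independent leaves or set beside the ABA response of guard cells. Levels are normalised read counts (cpm), and differences are mutant minus wild type.

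ABA is the hormone with which plants meet drought. When it binds receptors of the PYR/PYL family, these block clade A PP2C phosphatases, which frees SnRK2 kinases to phosphorylate the ABF proteins. ABFs are bZIP transcription factors that bind a short promoter element, the ABRE, and switch on genes for dehydrins and other protective proteins. In unstressed leaves ABA is low, so the comparison asks what the loss of these factors does to a leaf before any hormone is added.

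Library totals were 37571130 and 42933997 counts in wild type and 27421060 and 25852946 in the mutant, over 36796 listed loci. After genes with few counts were set aside, 22341 were tested. The 6 mesophyll markers were abundant in all 4 libraries (RBCS1A, a Rubisco small subunit, stood at 13356 and 13878 cpm in wild type and 11573 and 12030.3 in the mutant). The 2 mutant control libraries were less alike than any other pair of replicates. Of 16959 genes averaging at least 100 counts, 355 (2.09%) differed over 2-fold between them, against 78 (0.46%) between the wild-type control libraries and 0.118% to 0.513% in the other groups. Results are therefore given for each mutant library as well as for the pair. Bulk leaf RNA cannot tell fewer cells of a type from less RNA per cell.

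The targeted genes were lower in both mutant libraries, ABF3 and ABF4 far more than ABF1 and ABF2. ABF4 (AT3G19290, chromosome 3, 6687042 to 6690123, plus strand) stood at 30.5 and 31.9 cpm in wild type and 2.51 and 2.27 in the mutant (log2 difference -3.70, SE 0.10, edgeR adjusted p = 4.92e-09). ABF3 (AT4G34000, chromosome 4, 16295334 to 16298285, plus strand) stood at 19.9 and 16.7 cpm in wild type and 2.86 and 2.39 in the mutant (log2 difference -2.80, SE 0.12, edgeR adjusted p = 4.42e-07). ABF2 (AT1G45249, chromosome 1, 17165125 to 17167924, minus strand) stood at 18.0 and 18.7 cpm in wild type and 8.61 and 8.16 in the mutant (log2 difference -1.13, SE 0.07, edgeR adjusted p = 1.69e-05). ABF1 (AT1G49720, chromosome 1, 18400003 to 18402628, plus strand) kept more than the others, at 58.2 and 61.4 cpm in wild type and 36.3 and 30.4 in the mutant (log2 difference -0.84, SE 0.09, edgeR adjusted p = 2.51e-04). No library of one genotype overlapped the other for any of the 4 genes, as for 61.3% of all tested genes. Counts per gene do not show which piece of a transcript is left, and a non-coding locus, AT3G03815, lies within ABF4. Neighbours of the 4 genes were called about as often as genes elsewhere: 25.7% of those within 1 Mb of ABF1, 30.8% near ABF2, 27.7% near ABF3 and 21.0% near ABF4.

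Without any added hormone the genotypes differed at many genes, mostly by little. At an edgeR adjusted p under 0.05, 5930 genes (26.5% of those tested) were called, 2702 higher in the mutant (12.1%) and 3228 lower (14.4%). At least 2-fold besides, there were 806 (3.61%), and at that size the higher ones led, 597 against 209. Scaling by total counts alone moved the median difference of all genes from -0.02 to 0.12 on the log2 scale and turned the split to 4789 higher and 1675 lower, so small differences are to be read against that shift. Of the 5930 calls, 3592 (60.6%) remained in the same direction when mutant replicate 2 was left out, 4645 (78.3%) when replicate 1 was left out, and 2925 (49.3%) under both, 1272 higher and 1653 lower. Leaving out a wild-type library lowered the number of calls to 3602 (without replicate 1) and 3113 (without replicate 2). In each of these fits the remaining library is assumed to vary like the other groups. The main fit, too, shares its estimate of the spread over 6 groups, though the 2 mutant control libraries were less alike than any other pair. An edgeR fit of the 4 control leaf libraries alone called 1984 genes. Mutant and wild-type libraries did not overlap for 5920 of the 5930 called genes (99.8%), so that separation adds little to a call.

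Genes were then sorted by what each mutant library did on its own, as log2 cpm minus the mean of the 2 wild-type libraries. Both libraries lay at least 2-fold from that mean, in the same direction and outside the wild-type range, for 506 genes (2.26% of those tested), 340 higher and 166 lower. Replicate 2 alone did so, with replicate 1 within 0.5 log2 units of the wild-type mean, for 525 genes (2.35%), 344 higher and 181 lower. Replicate 1 alone did so for 207 genes (0.927%), 115 higher and 92 lower. The edgeR test called 437 of the 506 genes seen in both replicates, 126 of the 525 of replicate 2 alone and 14 of the 207 of replicate 1 alone. The same sorting with the genotypes exchanged gave 199 genes for wild-type replicate 2 alone and 174 for wild-type replicate 1 alone.

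**Figure D1:**
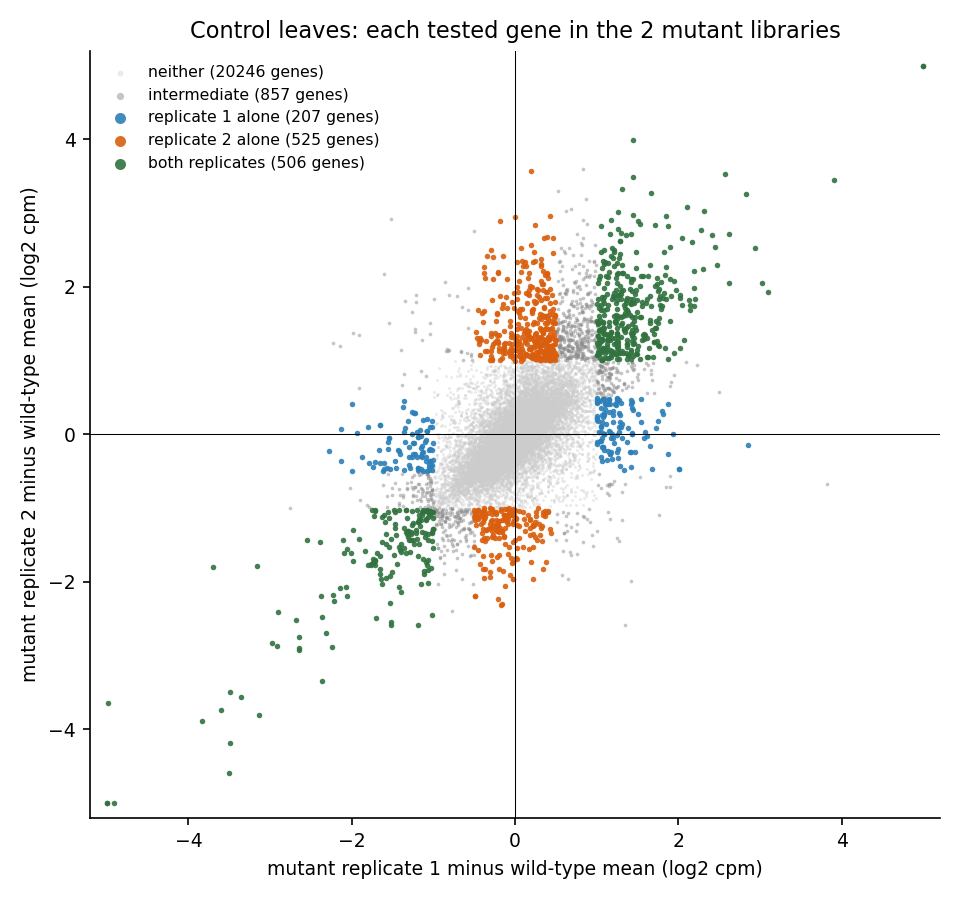
Each point is a tested gene, placed by its difference from the wild-type mean (log2 cpm) in mutant replicate 1 (x axis) and mutant replicate 2 (y axis), with values beyond 5 drawn at 5. The 506 genes changed in both replicates lie toward the upper right and lower left corners, and the 525 genes of replicate 2 alone outnumber the 207 of replicate 1 alone.

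The ABA-treated leaves of the same genotypes are separate libraries and show what recurred. Of the 340 genes higher in both control replicates, 177 were called higher in mutant leaves with ABA (30.7% of all tested genes were) and 23 lower, with a median difference of 1.0 on the log2 scale. Of the 166 lower ones, 97 were called lower (26.6% of all were) and 8 higher, with a median of -1.22. The 344 genes higher in replicate 2 alone were called higher there in 70 cases and lower in 40, with a median of 0.22. Of the 115 genes higher in replicate 1 alone, 25 were called higher and 29 lower. The added hormone is a further difference between these leaves and the control leaves.

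Genes of rapid stress responses were higher in both replicates. Of 12 listed genes for touch, wounding and rapid stress, 9 rose and none fell (12.1% and 14.4% of all tested). Their median difference was 0.89 in replicate 1 and 1.74 in replicate 2 on the log2 scale. In the separate leaves with ABA 5 of the 12 were called higher in the mutant and 3 lower (30.7% and 26.6% of all tested). WRKY33, a transcription factor of defence against fungi, stood at 77.2 and 73.9 cpm in wild type and 187 and 345 in the mutant (log2 difference 1.82, SE 0.22, edgeR adjusted p = 4.86e-04). WRKY40, another factor of defence, stood at 18.8 and 19.1 cpm in wild type and 45.0 and 95.1 in the mutant. The ethylene response factor ERF5 stood at 6.08 and 7.47 cpm in wild type and 19.1 and 24.0 in the mutant (log2 difference 1.66, SE 0.21, edgeR adjusted p = 6.23e-04). Its relative ERF6 stood at 6.19 and 8.64 cpm in wild type and 18.7 and 24.2 in the mutant. CML38 encodes a calmodulin-like calcium sensor. It stood at 4.11 and 5.62 cpm in wild type and 12.9 and 17.2 in the mutant (log2 difference 1.62, SE 0.24, edgeR adjusted p = 0.0011). For each of these 5 genes both mutant libraries lay above both wild-type libraries (the genotypes did not overlap for 99.8% of all called genes). Replicate 2 was the higher mutant library, by more for the 2 WRKY genes than for the other 3. With replicate 2 left out 8 of the 12 still rose, and with replicate 1 left out 11.

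The genes with large increases include 2 protein kinases, 2 EF-hand calcium-binding proteins and several genes of no known role. OXI1, a protein kinase induced by the oxidative burst, stood at 9.5 and 11.2 cpm in wild type and 34.6 and 45.1 in the mutant (log2 difference 1.94, SE 0.17, edgeR adjusted p = 1.00e-04). AT3G29000, which encodes an EF-hand calcium-binding protein, stood at 2.44 and 2.72 cpm in wild type and 13.1 and 21.5 in the mutant (log2 difference 2.74, SE 0.25, edgeR adjusted p = 1.15e-04). AT3G01830, another EF-hand gene, stood at 4.33 and 2.38 cpm in wild type and 10.3 and 31.4 in the mutant, but 58.1% of its exon bases lie in other loci. MPK11, a MAP kinase gene, stood at 5.05 and 5.44 cpm in wild type and 9.37 and 39.9 in the mutant. YLS9, of the LEA hydroxyproline-rich glycoprotein family, stood at 1.81 and 2.57 cpm in wild type and 3.97 and 20.1 in the mutant. In both most of the rise was in replicate 2, and without that library YLS9 was not called. AT1G56660 stood at 7.28 and 4.7 cpm in wild type and 24.4 and 37.3 in the mutant. AT4G28460 stood at 0.972 and 0.891 cpm in wild type and 3.21 and 7.05 in the mutant. These 2 genes have no known role. The largest increases were chosen among genes whose mutant and wild-type libraries did not overlap, so that separation is given by the choice. AT1G75945, an uncharacterized locus, had 4 and 1 counts in wild type and 382 and 334 counts in the mutant (edgeR adjusted p = 3.57e-07). AT5G35935, also uncharacterized, stood at 3.33 and 0.0247 cpm in wild type and 19.7 and 17.4 in the mutant, with both mutant libraries above wild-type libraries that were themselves far apart.

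Most oxidative stress genes and some heat shock genes rose as well, where 12.1% of all tested genes rose and 14.4% fell. Of 12 tested genes of oxidative stress and reactive oxygen, 8 rose and 2 fell, and with replicate 2 left out 5 rose and 2 fell. UGT74E2, a glycosyltransferase induced by hydrogen peroxide, stood at 66.6 and 78.5 cpm in wild type and 169.9 and 222 in the mutant (log2 difference 1.43, SE 0.20, edgeR adjusted p = 9.74e-04). ZAT12, a zinc finger regulator of such genes, stood at 13.3 and 13.6 cpm in wild type and 26.1 and 46.0 in the mutant. The 2 that fell are hydrogen peroxide scavengers. The catalase CAT3 stood at 2991 and 3615 cpm in wild type and 2129 and 1883 in the mutant (log2 difference -0.72, SE 0.11, edgeR adjusted p = 0.00123). The ascorbate peroxidase APX1 stood at 395 and 416 cpm in wild type and 238 and 288 in the mutant. In the separate leaves with ABA 2 of the 12 oxidative stress genes were called higher in the mutant and 4 lower. Their median there was -0.02 on the log2 scale (30.7% of all tested genes were called higher and 26.6% lower). Of 12 tested heat shock genes 5 rose and none fell, and in leaves with ABA 6 were called higher in the mutant and 2 lower. The factor HSFA2 stood at 1.67 and 1.76 cpm in wild type and 3.69 and 6.38 in the mutant (log2 difference 1.55, SE 0.26, edgeR adjusted p = 0.00203). The chaperone HSP90.1 stood at 21.0 and 12.8 cpm in wild type and 39.2 and 60.5 in the mutant. HSP23.6-MITO, a mitochondrial small heat shock protein, stood at 0.528 and 1.24 cpm in wild type and 3.94 and 3.39 in the mutant. These 3 were at least 2-fold up in both mutant libraries. The coactivator MBF1C stood at 18.6 and 16.4 cpm in wild type and 30.8 and 45.1 in the mutant, and the peptidyl-prolyl isomerase ROF2 completed the 5. HSP101, a defining heat gene, stood at 7.61 and 7.67 cpm in wild type and 8.29 and 9.58 in the mutant and was not called (edgeR adjusted p = 0.201).

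Genes for protein folding in the endoplasmic reticulum rose in the joint fit, and this count depends on replicate 2. Of 11 members 9 rose and none fell (12.1% and 14.4% of all tested). Their median was 0.59 in replicate 1 and 0.78 in replicate 2 on the log2 scale. ERDJ3B, a co-chaperone, stood at 98.8 and 67.9 cpm in wild type and 142 and 179 in the mutant (log2 difference 0.95, SE 0.18, edgeR adjusted p = 0.00427). BZIP60, a factor of the unfolded protein response, stood at 75 and 61.9 cpm in wild type and 107 and 167 in the mutant. BIP3, an inducible BiP chaperone, stood at 11.4 and 6.14 cpm in wild type and 14.5 and 41.5 in the mutant. The wild-type libraries themselves were apart, replicate 2 below replicate 1 for all 3. The count fell to 2 without mutant replicate 2 and to 0 in an edgeR fit of the 4 control leaf libraries alone, where 7 had an unadjusted p under 0.05; DESeq2 on all libraries called 10. In the separate ABA-treated leaves 10 of the 11 members were called higher in the mutant. Of 10 tested hypoxia genes 5 rose and 1 fell (12.1% and 14.4% of all tested). HRE2, an ethylene response factor of low-oxygen signalling, stood at 1.39 and 1.53 cpm in wild type and 5.4 and 7.27 in the mutant (log2 difference 2.11, SE 0.25, edgeR adjusted p = 4.05e-04). The sucrose synthase SUS4 stood at 0.0555 and 0.0247 cpm in wild type and 0.383 and 0.261 in the mutant. The pyruvate decarboxylase PDC1 stood at 6.11 and 5.86 cpm in wild type and 14.3 and 16.4 in the mutant. Its partner in fermentation, the alcohol dehydrogenase ADH1, was not called, at 5.25 and 5.3 cpm in wild type and 4.53 and 4.77 in the mutant. HRE1, a relative of HRE2, fell, at 4.69 and 5.44 cpm in wild type and 3.38 and 3.21 in the mutant.

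Several effectors of the ABA response were higher in the mutant at control. Of 20 listed effectors of the ABA response 8 rose and none fell, with a median of 0.62 in replicate 1 and 0.28 in replicate 2 on the log2 scale (12.1% and 14.4% of all tested genes rose and fell). With replicate 2 left out 11 rose and none fell, and with replicate 1 left out 8 rose and 2 fell. The dehydrin gene ERD10 stood at 203 and 205 cpm in wild type and 455 and 376 in the mutant (log2 difference 1.03, SE 0.10, edgeR adjusted p = 1.39e-04). COR47, also a dehydrin, stood at 446 and 381 cpm in wild type and 842 and 734 in the mutant (log2 difference 0.93, SE 0.11, edgeR adjusted p = 4.45e-04). The dehydrin LTI30 stood at 23.1 and 17.4 cpm in wild type and 49.2 and 35.6 in the mutant. RD26, a NAC transcription factor, stood at 7.86 and 6.36 cpm in wild type and 15.9 and 18.3 in the mutant (log2 difference 1.26, SE 0.14, edgeR adjusted p = 2.79e-04). DREB2A, a drought-responsive AP2 factor, stood at 4.83 and 7.08 cpm in wild type and 12.4 and 16.8 in the mutant (log2 difference 1.28, SE 0.20, edgeR adjusted p = 0.00162). RD29A, a widely used reporter of the response, rose less, at 517 and 438 cpm in wild type and 878 and 667 in the mutant (log2 difference 0.69, SE 0.14, edgeR adjusted p = 0.00588). Both mutant libraries exceeded both wild-type libraries for these 6 genes (the genotypes did not overlap for 99.8% of all called genes). AFP3, of the family that binds ABI5, and COR15A, a cryoprotective protein of the chloroplast, complete the 8. AFP3 stood at 5.03 and 3.88 cpm in wild type and 6.72 and 7.79 in the mutant. COR15A stood at 347 and 328 cpm in wild type and 986 and 472 in the mutant, where replicate 1 was the high library. The other 12 gave no call, the dehydrin RAB18 among them: it stood at 8.67 and 6.16 cpm in wild type and 7.7 and 8.61 in the mutant (edgeR adjusted p = 0.526).

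In leaves with ABA the same list went the other way, with 19 of 20 members called lower in the mutant and none higher. For genes picked because they rose at control, the difference between the 2 genotype differences is given as a description. It was 2.29 on the log2 scale for ERD10, 3.59 for RD26 and 1.74 for DREB2A. DREB2A, unlike ERD10 and RD26, is not among the genes called in opposite directions at control and with ABA. Of 6483 genes that guard cells raise with ABA, 804 were higher in mutant control leaves (12.4%) and 1111 lower (17.1%), against 12.1% and 14.4% of all tested genes. Of the 1051 raised at least 4-fold, 134 were higher (12.7%) and 57 lower (5.42%), with medians of 0.18 in replicate 1 and -0.02 in replicate 2 on the log2 scale.

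**Figure D2:**
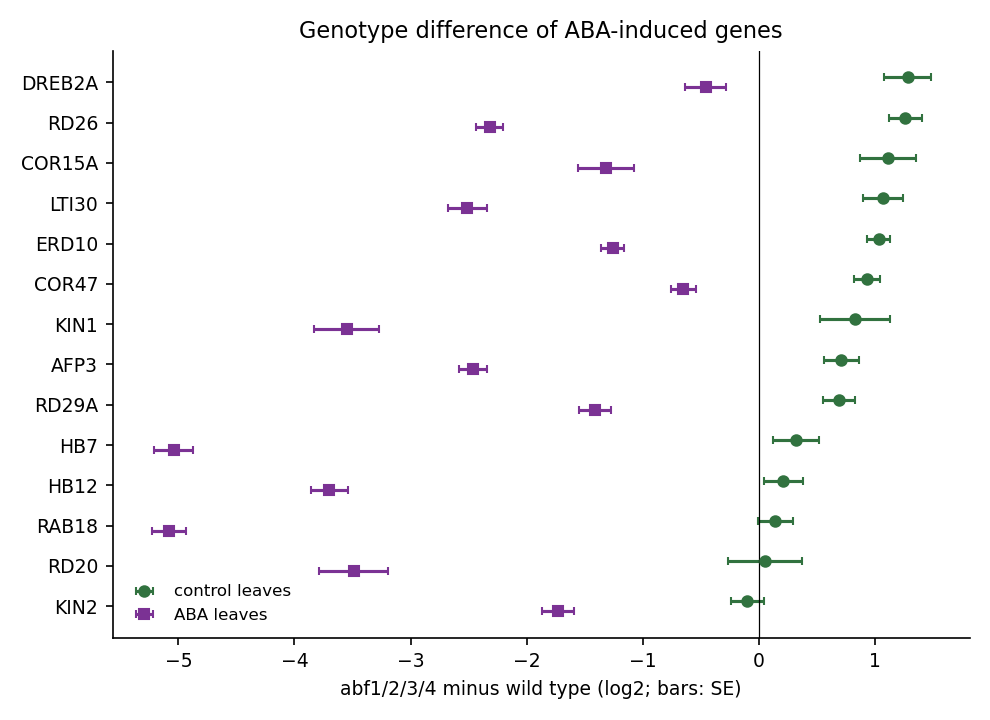
Genotype difference (abf1/2/3/4 minus wild type, log2, bars are SE, n = 2 libraries a group) of the listed ABA-induced genes with at least 1 cpm in wild-type control leaves, in control leaves (circles) and in leaves with ABA (squares). ERD10 stood at 1.03 at control and -1.26 with ABA, and RD26 at 1.26 and -2.32.

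A few members of the core of ABA signalling were called, in the direction named for each. Of all tested genes 12.1% were called higher and 14.4% lower. The counts of SnRK2 kinases and of proline and raffinose genes lie near or below those shares. Of 9 tested PYR/PYL receptors, 3 fell and none rose. PYL6 stood at 14.7 and 13.5 cpm in wild type and 6.17 and 10 in the mutant (log2 difference -0.80, SE 0.21, edgeR adjusted p = 0.0158). PYL5 stood at 24.1 and 23.3 cpm in wild type and 12.5 and 18.0 in the mutant. PYL7 stood at 32.1 and 35.5 cpm in wild type and 24.0 and 25.5 in the mutant. PYL6 and PYL5 were lowest in mutant replicate 1, while PYL7 was alike in both. Of 8 tested clade A phosphatases 3 rose and 1 fell. ABI2 stood at 6.42 and 4.73 cpm in wild type and 9.06 and 10.6 in the mutant (log2 difference 0.82, SE 0.13, edgeR adjusted p = 0.00163). HAB2 stood at 32.2 and 32.9 cpm in wild type and 46.6 and 40 in the mutant, and ABI1 at 49.1 and 48.1 cpm in wild type and 62.1 and 61.1 in the mutant. PP2CA, the 1 that fell, stood at 25 and 28.7 cpm in wild type and 22.9 and 20.1 in the mutant. Scaling by total counts removed the call of PP2CA and left 2 receptors called lower. Of 10 SnRK2 kinases SNRK2.4 rose, at 81.0 and 80.4 cpm in wild type and 95.8 and 102 in the mutant. SNRK2.10 fell, at 68.4 and 63.9 cpm in wild type and 53.1 and 55.9 in the mutant. By total-count scaling 2 SnRK2 kinases rose and none fell. Among 12 tested genes of ABA synthesis and breakdown 3 rose: the xanthoxin dehydrogenase ABA2, the ABA hydroxylase CYP707A3, at 8.19 and 7.2 cpm in wild type and 10 and 12.5 in the mutant, and NCED5, which stayed under 1 cpm. Of 11 other bZIP factors ABI5, the seed relative of the ABFs, rose to 2.86 and 2.27 cpm from 1.08 and 1.63 cpm (log2 difference 0.91, SE 0.22, edgeR adjusted p = 0.0126), GBF4 rose and EEL fell. In the separate cold list 7 of 16 rose and 1 fell, 5 of the 7 being ABA effectors given above. COR15B, a relative of COR15A, stood at 122 and 146 cpm in wild type and 275 and 199 in the mutant, and the CBF factors that drive cold induction gave no call. Of 9 tested genes of proline and raffinose metabolism 1 fell (RS5, log2 difference -0.25).

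Photosynthesis genes were lower in both mutant libraries. Of 24 listed nuclear genes 18 fell and none rose (14.4% and 12.1% of all tested), with medians of -0.56 in replicate 1 and -0.53 in replicate 2 on the log2 scale. LHCB3, a light-harvesting protein of photosystem II, stood at 6464 and 7577 cpm in wild type and 3506 and 3491 in the mutant (log2 difference -1.0, SE 0.11, edgeR adjusted p = 2.51e-04). LHCB6, a minor antenna protein of the same photosystem, stood at 5105 and 5700.4 cpm in wild type and 2863 and 2743 in the mutant. LHCB5, another, stood at 6282 and 7095 cpm in wild type and 3583 and 3535 in the mutant. RCA, Rubisco activase, stood at 6849 and 6942 cpm in wild type and 4104 and 3919 in the mutant (log2 difference -0.78, SE 0.09, edgeR adjusted p = 3.49e-04). For each of the 4 the mutant libraries were close to each other and below both wild-type libraries, and together the listed genes took 11.9% and 12.8% of all counts in wild type and 9.57% and 9.72% in the mutant. PSAD-1, of photosystem I, lay above wild type, at 2431 and 2608 cpm in wild type and 2876 and 2856 in the mutant (edgeR adjusted p = 0.113). By gene description, 32 of 55 light-harvesting and photosystem genes fell and none rose. In ABA-treated leaves 7 of the 24 were called higher and 5 lower. By total-count scaling 15 fell and 1 rose.

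Of 15 nitrate genes 3 fell and 2 rose (14.4% and 12.1% of all tested). Without replicate 2 it was 3 and none, and without replicate 1 it was 3 and 4. The nitrate transporter NRT1.1 stood at 135 and 140.2 cpm in wild type and 67.1 and 77.6 in the mutant (log2 difference -0.93, SE 0.11, edgeR adjusted p = 3.49e-04). The chloroplast glutamine synthetase GS2 stood at 1123 and 1175 cpm in wild type and 905 and 890.2 in the mutant. The ferredoxin-dependent glutamate synthase GLU1 stood at 967 and 995 cpm in wild type and 727 and 670.3 in the mutant. The 2 that rose were BT2, at 17.3 and 27.7 cpm in wild type and 34.8 and 68.1 in the mutant, and LBD37, at 56.2 and 64.0 cpm in wild type and 72.9 and 96.4 in the mutant. The sucrose exporter SWEET12 stood at 156 and 153 cpm in wild type and 81.6 and 83.8 in the mutant (log2 difference -0.90, SE 0.07, edgeR adjusted p = 4.22e-05). Its relative SWEET11 stood at 404 and 397 cpm in wild type and 241 and 265 in the mutant. The sucrose transporter SUC2 stood at 367 and 354 cpm in wild type and 219 and 241 in the mutant. All 3 act in phloem loading and were lower in both libraries. They were taken from the called genes among the 17 vein markers, of which 4 fell, none rose and 13 were not called. By sign 7 of the 17 lay above zero, and the 3 do not stand for all phloem markers. The xylem markers, such as XCP2 at 21.4 and 20.7 cpm in wild type and 21.7 and 22.1 in the mutant, gave no call. Summed levels of the 17 markers went from 1370.0 and 1340.0 cpm in wild type to 992.0 and 1000.0 in the mutant. That sum includes the 3 abundant transporters, and the median difference over the 17 was -0.04 on the log2 scale. Ribosomal proteins, taken by their gene descriptions, fell in 115 and rose in 26 of 315 tested, with a median of -0.17; by total-count scaling it was 79 and 62.

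Of 18 tested gibberellin genes 1 rose and 4 fell (12.1% and 14.4% of all tested). RNA of 2 genes for DELLA proteins, the repressors that gibberellin removes, was among the lower. The counts measure RNA and not protein. RGA1 stood at 64.0 and 66.5 cpm in wild type and 34.2 and 37.8 in the mutant (log2 difference -0.86, SE 0.08, edgeR adjusted p = 1.52e-04). GAI stood at 40.7 and 42.9 cpm in wild type and 25.5 and 22.7 in the mutant (log2 difference -0.79, SE 0.11, edgeR adjusted p = 7.48e-04). Both were lower in both mutant libraries by a similar step. The gibberellin-regulated peptide genes GASA6 and GASA4 fell too. GASA6 stood at 46.8 and 63.0 cpm in wild type and 23.9 and 24.5 in the mutant. GASA4 stood at 50.6 and 74.2 cpm in wild type and 36.9 and 40 in the mutant. GA2OX2, whose enzyme inactivates gibberellin, rose, at 2.17 and 1.95 cpm in wild type and 3.59 and 4.59 in the mutant. The other 13 of 18 tested members, the gibberellin receptors among them, were not called. GASA6 and GASA4 were higher in the mutant in leaves with ABA, by 4.25 and 2.34 on the log2 scale.

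Most of the largest decreases lay in stretches of repeated DNA or in a small block of chromosome 1. MRD1 (AT1G53480, chromosome 1, 19963047 to 19964712, minus strand) had 813 and 957 counts in wild type and 2 and 5 counts in the mutant (log2 difference -7.48, SE 0.18, edgeR adjusted p = 2.37e-09). AT1G07887, on the other strand, lies wholly within it, and HEI10, a RING protein of meiotic crossing-over that overlaps both, stood at 24.4 and 25.5 cpm in wild type and 0.766 and 0.708 in the mutant; whether the 3 loci share reads cannot be told apart. QQS, an orphan gene that affects starch, stood at 44.2 and 49.9 cpm in wild type and 4.11 and 2.54 in the mutant (log2 difference -3.82, SE 0.17, edgeR adjusted p = 7.04e-07). AT2G03875, at 163 and 132 cpm in wild type and 10.2 and 9.88 in the mutant, AT2G03865, AT2G01021, AT2G01010 and AT3G41979 belong to 2 stretches of ribosomal DNA. The 16 loci of those stretches took 0.79% and 0.546% of all counts in wild type and 0.148% and 0.136% in the mutant, and 9 of 13 tested fell. The same gap stood in leaves with ABA, at 0.485% and 0.518% against 0.137% and 0.141%. The part of these loci in other results was not tested. Of 116 tested loci in the mitochondrial DNA insertion of chromosome 2, 22 fell and 1 rose.

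Salicylic acid and defence genes separated the 2 mutant libraries. Of 27 listed genes 5 rose and none fell in the fit of both replicates, but the medians were -0.03 in replicate 1 and 1.25 in replicate 2 on the log2 scale. With replicate 2 left out 1 of 27 rose and none fell, against 8.76% and 9.7% of all tested genes. With replicate 1 left out 24 of 27 rose, against 13.3%. By the sorting above 11 of the 27 changed in replicate 2 alone and 1, NIMIN1, in both.

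**Figure D3:**
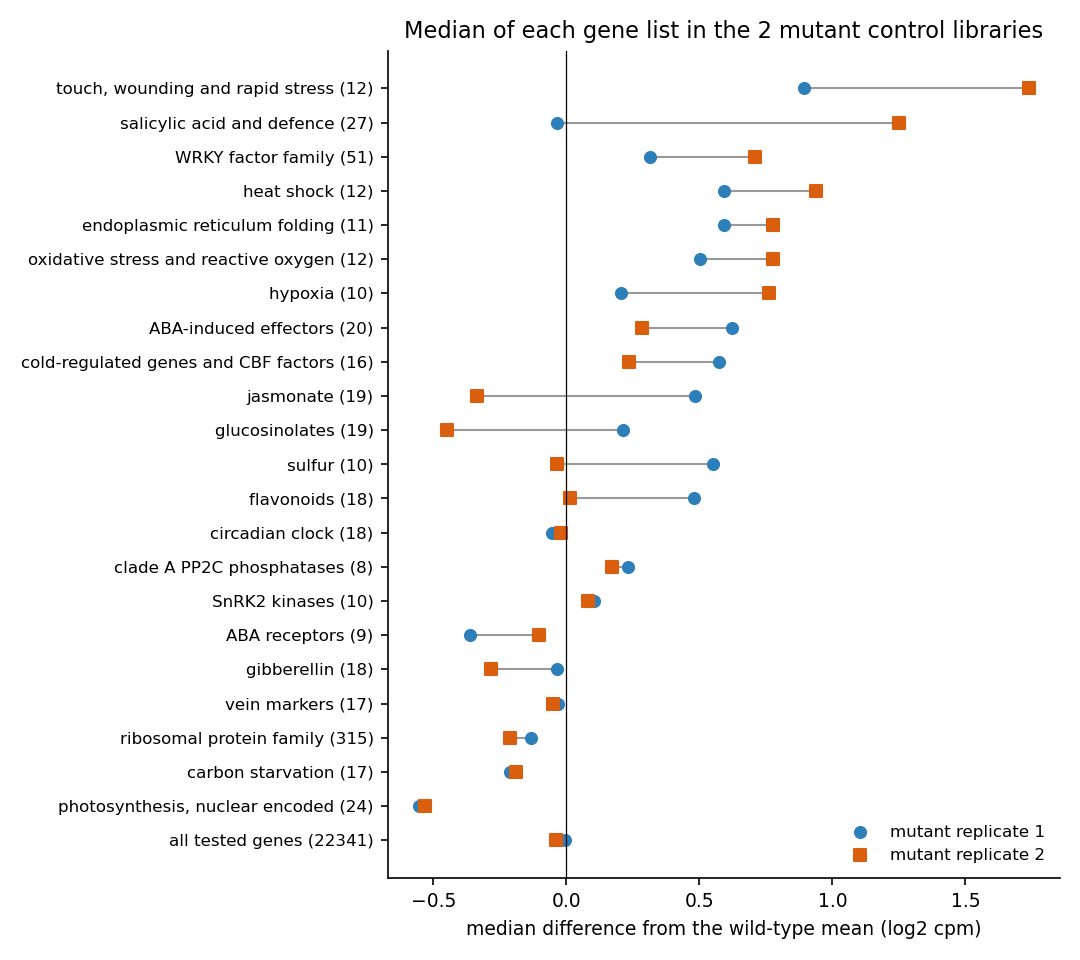
Median difference from the wild-type mean (log2 cpm) over the tested genes of each list or family (number in brackets), in mutant replicate 1 (circles) and replicate 2 (squares) of the control leaves. The lists for salicylic acid, jasmonate and glucosinolates stand apart between the replicates, and photosynthesis coincides at -0.56 and -0.53.

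Single genes are given in the order of the pathway; ICS1, CBP60G, SARD1, PBS3, WRKY46, WRKY70, PR1 and FMO1 were chosen after their values were seen. ICS1, the isochorismate synthase of salicylic acid synthesis, stood at 27.9 and 22.4 cpm in wild type and 23.1 and 91.3 in the mutant. Its activator CBP60G stood at 24.5 and 20.7 cpm in wild type and 22.0 and 78.1 in the mutant. SARD1, the other activator, stood at 29.7 and 24.3 cpm in wild type and 23.0 and 64.9 in the mutant. For these and for PBS3, which acts after ICS1, at 10.9 and 5.39 cpm in wild type and 4.67 and 28.4 in the mutant, mutant replicate 2 was the 1 high library, and replicate 1 lay within or below the wild-type range. In the fit without replicate 2 the log2 difference of ICS1 was -0.12, and without replicate 1 it was 1.86. Each of these fits rests on 1 mutant control library. Replicate 2 was again the high library for the regulators WRKY46 and WRKY70 and for the receptor NPR3. WRKY46 stood at 11.4 and 10.5 cpm in wild type and 8.36 and 49.7 in the mutant. WRKY70 stood at 50.5 and 50.0 cpm in wild type and 59.3 and 129 in the mutant. NPR3 stood at 20.8 and 18.9 cpm in wild type and 24.0 and 41.4 in the mutant. PR1, the marker gene of the salicylic acid response, stood at 61.4 and 29.9 cpm in wild type and 18.4 and 149 in the mutant, so it was lower than wild type in replicate 1 and higher in replicate 2. Some genes lay above wild type in both mutant libraries. PAD3, for the last step of camalexin synthesis, stood at 31.0 and 22.5 cpm in wild type and 47.1 and 113 in the mutant. DLO1, a salicylic acid hydroxylase, stood at 10.4 and 6.71 cpm in wild type and 14.8 and 53.2 in the mutant. NIMIN1, which binds the receptor NPR1, stood at 1.39 and 1.01 cpm in wild type and 3.34 and 9.77 in the mutant (log2 difference 2.45, SE 0.45, edgeR adjusted p = 0.0034). With these and NPR3, WRKY54 was the fifth called gene, at 28.5 and 34.0 cpm in wild type and 37.4 and 64.9 in the mutant. FMO1, of systemic resistance, stood at 1.72 and 0.297 cpm in wild type and 0.488 and 1.23 in the mutant. In an edgeR fit of the 4 control leaf libraries alone none of the 27 was called, although 7 were higher at an unadjusted p under 0.05. DESeq2 on all libraries called 6, and total-count scaling 11. With ABA 5 of the 27 were called higher in the mutant and 1 lower.

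**Figure D4:**
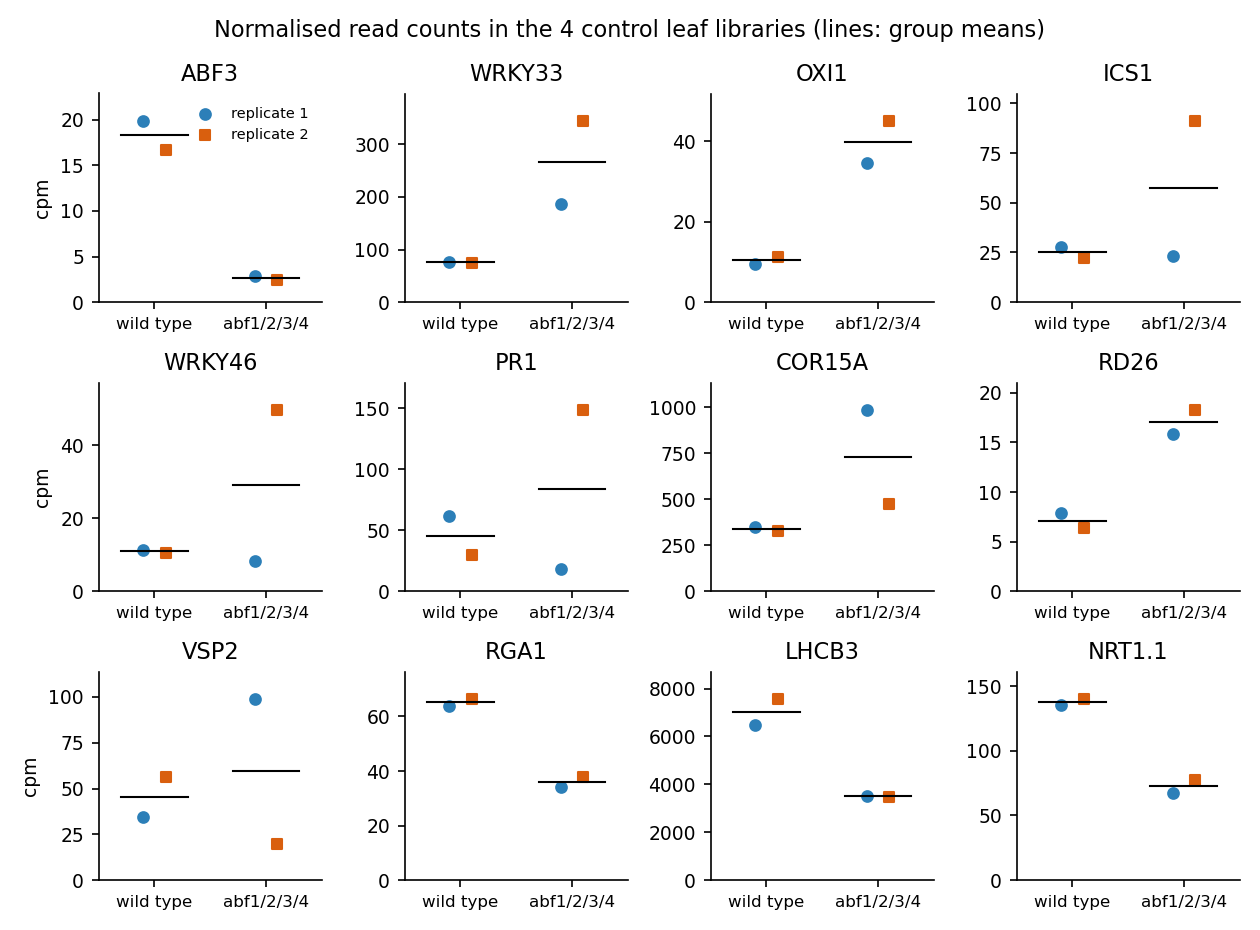
Normalised read counts (cpm, linear axes from 0) of 12 genes in the 4 control leaf libraries, circles for replicate 1, squares for replicate 2 and lines for the mean of each genotype. ABF3, RGA1, LHCB3 and NRT1.1 are low in both mutant libraries, WRKY33, OXI1 and RD26 are high in both, ICS1, WRKY46 and PR1 are high in replicate 2 alone, and COR15A and VSP2 are highest in replicate 1.

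WRKY factors and cysteine-rich receptor-like kinases had more calls with replicate 2 than without it, as did all tested genes, of which 8.76% rose and 9.7% fell without replicate 2 and 13.3% rose and 14.2% fell without replicate 1. Of 51 tested WRKY factors 22 rose and none fell, 11 with replicate 2 left out and 26 with replicate 1 left out. Of 35 cysteine-rich receptor-like kinases 6 rose and 3 fell, while 2 rose without replicate 2 and 18 rose without replicate 1. Of 73 disease resistance proteins of the TIR-NBS-LRR class 7 rose and 7 fell (12.1% and 14.4% of all tested), 4 rose and 6 fell without replicate 2, and 22 rose and 4 fell without replicate 1. Calcium-binding EF-hand and calmodulin-like genes, with 10 of 41 higher and 3 lower, gave 8 and 6 without replicate 2 and 12 and 4 without replicate 1. These families were taken by gene description after the values of single members had been seen.

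Among genes of replicate 2 alone with at least 5 cpm in that library, the 8 strongest risers include 3 transcription factor genes. AT5G51465 has no named function and stood at 2.36 and 1.31 cpm in wild type and 2.02 and 21.5 in the mutant. AT5G57010, a calmodulin-binding protein gene, stood at 4.0 and 3.71 cpm in wild type and 5.19 and 30.3 in the mutant. WRKY51 stood at 1.44 and 1.31 cpm in wild type and 1.64 and 10.2 in the mutant. The zinc finger gene ZAT7 stood at 4.22 and 4.55 cpm in wild type and 5.75 and 28.3 in the mutant. The NAC factor NAC090 stood at 1.94 and 3.07 cpm in wild type and 2.58 and 14.4 in the mutant. Replicate 2 was several times the other 3 libraries for each of these. AT5G52760, annotated as a copper transport protein, stood at 8.53 and 7.62 cpm in wild type and 10.3 and 51.3 in the mutant. AT3G22600, of the lipid transfer protein superfamily, stood at 7.69 and 4.08 cpm in wild type and 7.73 and 35.9 in the mutant. AT3G28510, a P-loop hydrolase, stood at 3.03 and 1.41 cpm in wild type and 1.67 and 12.0 in the mutant. That mutant replicate 1 stood beside the wild-type libraries in all 8 follows from the rule that sorted them.

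Among genes of replicate 2 alone that averaged at least 5 cpm in wild type, the 8 strongest fallers include 2 lectin genes. JR1, a jacalin-related lectin induced by jasmonate, stood at 156 and 112 cpm in wild type and 162 and 56.7 in the mutant. JAL23, another such lectin, stood at 16.8 and 12.7 cpm in wild type and 17.0 and 5.0 in the mutant. The methionine sulfoxide reductase MSRB5 stood at 25.6 and 21.9 cpm in wild type and 17.6 and 6.93 in the mutant. The papain-like protease gene AT4G11320 stood at 12.7 and 12.3 cpm in wild type and 10.8 and 2.61 in the mutant. The sterol desaturase CYP710A2 stood at 7.89 and 5.72 cpm in wild type and 5.16 and 2.5 in the mutant. The MATE transporter AT1G66760 stood at 9.22 and 8.07 cpm in wild type and 7.39 and 3.43 in the mutant. The oxygenase AT1G12010 stood at 4.69 and 6.9 cpm in wild type and 4.32 and 2.31 in the mutant. GSTF11, a glutathione transferase, stood at 12.7 and 10.9 cpm in wild type and 10.8 and 4.85 in the mutant, and its exons overlap another locus over their whole length. Mutant replicate 2 was the lowest library for each, and replicate 1 lay near or within the wild-type range, as the rule of sorting requires.

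The jasmonate list turned over between the replicates. Its counts in the joint fit lie near the shares of all tested genes, of which 12.1% rose and 14.4% fell. Of 19 genes 3 rose and 2 fell in the joint fit; without replicate 2 it was 7 and 1, and without replicate 1 it was 2 and 6. VSP2, a storage protein that marks the jasmonate response, stood at 34.6 and 56.3 cpm in wild type and 99.0 and 19.8 in the mutant, above wild type in replicate 1 and below it in replicate 2. MYC2, the main factor of that response, stood at 108 and 106 cpm in wild type and 178 and 109 in the mutant. In the joint fit the lipoxygenase LOX4 rose, at 17.9 and 12.5 cpm in wild type and 29.4 and 66.4 in the mutant (log2 difference 1.65, SE 0.33, edgeR adjusted p = 0.00474). The repressor JAZ1 rose, at 40.3 and 43.3 cpm in wild type and 64.3 and 62.1 in the mutant, and JAZ5, another, at 7.3 and 7.0 cpm in wild type and 11.5 and 8.95 in the mutant. JAR1, which conjugates jasmonate to isoleucine, fell, at 75.1 and 75.1 cpm in wild type and 57.0 and 56.1 in the mutant. The defensin PDF1.2 fell, at 14.9 and 10.6 cpm in wild type and 7.94 and 5.52 in the mutant. Of the glucosinolate genes 1 of 19 rose, while 4 rose without replicate 2 and 9 fell with 3 rising without replicate 1. MYB29, CYP79F1, VSP2 and MYC2 were chosen after their values were seen. MYB29, a factor of the aliphatic branch, stood at 24.5 and 21.6 cpm in wild type and 33.9 and 16.4 in the mutant. The enzyme CYP79F1 stood at 365 and 304 cpm in wild type and 439 and 213 in the mutant. MYB51, the factor of the indole branch, was the member that rose, at 25.9 and 24.0 cpm in wild type and 35.7 and 71.7 in the mutant (log2 difference 1.11, SE 0.23, edgeR adjusted p = 0.0061), and it did so in both libraries.

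Some sulfur and flavonoid genes were called only with replicate 2 left out. The joint counts of both lists lie near the 12.1% of all tested genes that rose. Of 10 sulfur genes 1 rose jointly and 5 without replicate 2. APR1, an adenylyl sulfate reductase, stood at 117 and 101 cpm in wild type and 174 and 107 in the mutant. SDI1, induced by sulfur shortage, stood at 2.06 and 1.66 cpm in wild type and 5.09 and 1.86 in the mutant. SHM7, the joint call, stood at 34.1 and 33.1 cpm in wild type and 54.5 and 43.1 in the mutant. Of 18 tested flavonoid genes 2 rose jointly and 5 without replicate 2. The joint calls were HY5, at 4.94 and 4.26 cpm in wild type and 9.06 and 6.93 in the mutant, and MYB111, at 1.14 and 0.99 cpm in wild type and 2.82 and 1.68 in the mutant. PAP1, the anthocyanin MYB factor, stood at 1.69 and 2.08 cpm in wild type and 6.93 and 1.12 in the mutant. APR1, SDI1 and PAP1 were chosen after their values were seen. The 115 genes higher in replicate 1 alone had a median ABA response of 1.4 on the log2 scale in guard cells, against -0.45 for the 344 of replicate 2 alone and -0.16 for the 340 of both.

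Promoters were read to see what the sorted genes share. Each promoter is the 300 bases before the annotated gene start in TAIR10.1, searched on both strands for the W-box, the element of WRKY factors (TTGACC or TTGACT), the ABRE (ACGTGGC or ACGTGTC) and the evening element of the clock (AAAATATCT). The 7 promoters printed are those of genes described above with at least 2 W-box matches among OXI1, WRKY33 and the strongest risers, or with an ABRE match among the called ABA effectors RD26 and DREB2A. They were picked once the matches were known. Sequence is written 5′ to 3′ on the gene's strand in lower case, with matches to any of the motifs in capitals.
WRKY33 (AT2G38470, chr2:16107935-16108234, plus strand): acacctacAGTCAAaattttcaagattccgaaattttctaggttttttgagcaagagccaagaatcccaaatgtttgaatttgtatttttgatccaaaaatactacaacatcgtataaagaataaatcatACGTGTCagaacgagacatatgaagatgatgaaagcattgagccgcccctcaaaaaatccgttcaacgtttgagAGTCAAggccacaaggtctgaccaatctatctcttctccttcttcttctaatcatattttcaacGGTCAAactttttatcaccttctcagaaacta
OXI1 (AT3G25250, chr3:9195034-9195333, plus strand): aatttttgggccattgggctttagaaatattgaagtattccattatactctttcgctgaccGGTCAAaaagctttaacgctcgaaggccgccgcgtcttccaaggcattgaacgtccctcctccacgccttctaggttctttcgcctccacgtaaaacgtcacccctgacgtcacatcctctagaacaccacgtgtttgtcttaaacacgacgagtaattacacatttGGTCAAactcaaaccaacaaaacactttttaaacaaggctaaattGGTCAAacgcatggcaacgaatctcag
AT3G29000 (AT3G29000, chr3:11005338-11005637, plus strand): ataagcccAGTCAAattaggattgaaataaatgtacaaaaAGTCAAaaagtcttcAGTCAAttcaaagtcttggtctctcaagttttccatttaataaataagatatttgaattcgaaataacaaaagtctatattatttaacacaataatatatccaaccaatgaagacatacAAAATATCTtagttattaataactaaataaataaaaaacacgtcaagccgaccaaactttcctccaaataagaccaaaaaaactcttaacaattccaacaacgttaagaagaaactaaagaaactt
AT5G51465 (AT5G51465, chr5:20905569-20905868, minus strand): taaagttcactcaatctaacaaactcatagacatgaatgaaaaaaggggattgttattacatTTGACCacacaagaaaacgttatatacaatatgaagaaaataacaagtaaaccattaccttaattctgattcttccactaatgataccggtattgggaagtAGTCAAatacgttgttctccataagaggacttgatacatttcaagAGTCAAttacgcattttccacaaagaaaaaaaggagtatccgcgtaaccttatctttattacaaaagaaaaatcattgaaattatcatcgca
AT5G52760 (AT5G52760, chr5:21386427-21386726, plus strand): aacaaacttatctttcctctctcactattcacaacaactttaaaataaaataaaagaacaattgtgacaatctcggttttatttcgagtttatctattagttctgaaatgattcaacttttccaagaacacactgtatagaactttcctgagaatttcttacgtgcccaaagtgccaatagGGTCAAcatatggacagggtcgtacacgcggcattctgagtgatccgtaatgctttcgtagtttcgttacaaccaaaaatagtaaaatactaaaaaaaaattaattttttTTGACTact
RD26 (AT4G27410, chr4:13709171-13709470, minus strand): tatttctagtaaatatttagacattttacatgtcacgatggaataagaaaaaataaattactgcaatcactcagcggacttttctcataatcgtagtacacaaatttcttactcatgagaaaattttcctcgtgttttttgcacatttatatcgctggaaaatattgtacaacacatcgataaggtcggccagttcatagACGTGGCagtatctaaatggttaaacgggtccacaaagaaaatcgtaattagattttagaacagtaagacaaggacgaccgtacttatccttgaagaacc
DREB2A (AT5G05410, chr5:1601905-1602204, plus strand): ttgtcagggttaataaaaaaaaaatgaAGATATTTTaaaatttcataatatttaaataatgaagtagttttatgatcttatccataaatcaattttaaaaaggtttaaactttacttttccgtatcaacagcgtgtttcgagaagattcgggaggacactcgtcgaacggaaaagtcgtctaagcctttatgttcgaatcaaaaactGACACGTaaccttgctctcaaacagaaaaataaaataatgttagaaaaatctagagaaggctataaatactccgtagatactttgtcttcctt
WRKY33 and OXI1 hold 3 W-box matches each, AT3G29000 and AT5G51465 also 3, and AT5G52760 2. RD26 holds 1 ABRE match, and so do DREB2A and WRKY33. DREB2A and AT3G29000 also hold 1 match to the evening element.

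The W-box was found in 31.9% of 20346 promoters of tested protein-coding genes, in 46.3% of the 257 of genes higher in both replicates and in 50.8% of the 315 of genes higher in replicate 2 alone. In genes higher in replicate 1 alone it was 25.5%, in those lower in both 32.1% and in those lower in replicate 2 alone 21.5%. The ABRE was found in 8.11% of all, in 10.5% of those higher in both, in 2.75% of those lower in both (3 of 109 promoters), in 7.3% of those higher in replicate 2 alone and in 14.3% of those higher in replicate 1 alone. Of the 20 ABA effectors 9 hold it. None of the 27 salicylic acid genes does, and 5 of them hold a W-box. For the evening element the shares were 2.92% of all, 5.45% of those higher in both and 0.694% of those lower in replicate 2 alone. These are shares of letters in short windows and show no binding.

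**Figure D5:**
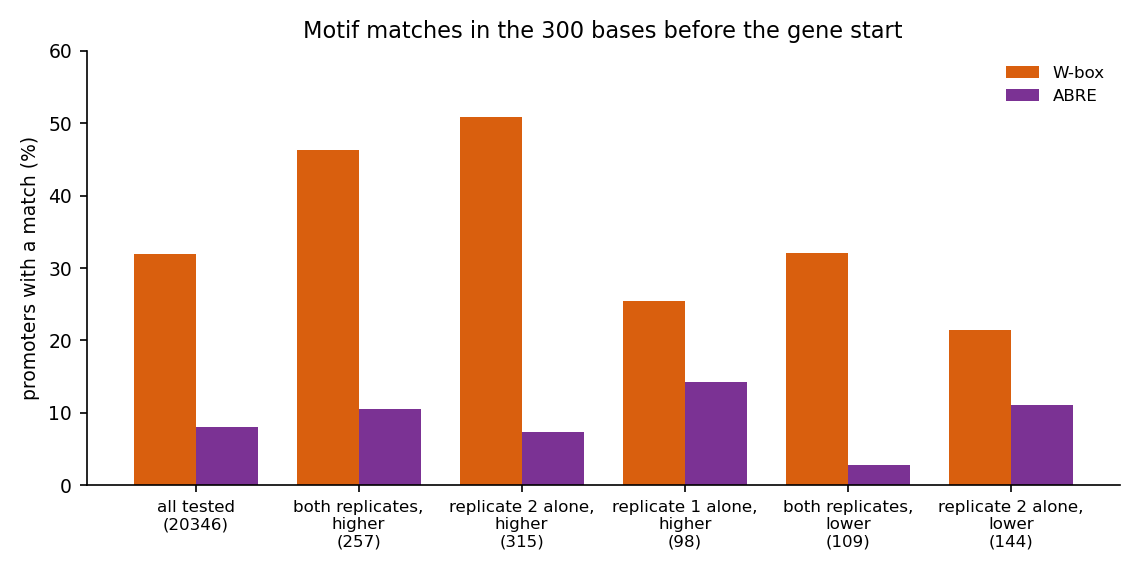
Share of promoters (300 bases before the gene start, number of promoters in brackets) with at least 1 match to the W-box or the ABRE, for all tested protein-coding genes and for the sorted sets. The W-box bars of the 2 sets that are higher in both replicates (46.3%) and in replicate 2 alone (50.8%) stand above the 31.9% of all genes.

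Flowering genes moved both ways. Of 15 tested, 4 rose and 4 fell (12.1% and 14.4% of all tested), 3 and 4 without replicate 2, and 3 and 2 without replicate 1. FLC, the floral repressor, fell, at 2.36 and 3.76 cpm in wild type and 0.279 and 0.82 in the mutant (log2 difference -2.50, SE 0.55, edgeR adjusted p = 0.00798). SPL3 fell, at 13.6 and 15.3 cpm in wild type and 8.36 and 10.3 in the mutant. SOC1, an integrator of flowering signals, rose, at 64.3 and 63.7 cpm in wild type and 76.5 and 77.1 in the mutant. SVP, a repressor, rose, at 112 and 119.8 cpm in wild type and 149 and 140.1 in the mutant, and so did SPL4, at 4.89 and 3.76 cpm in wild type and 8.61 and 6.3 in the mutant. FLC shares 68.1% of its exon bases with other loci and SPL3 97.3%. Of 18 clock genes 3 rose, 1 fell and 14 were not called. TOC1, an evening gene, stood at 71.1 and 83.1 cpm in wild type and 106 and 129.9 in the mutant. LUX, another, stood at 31.9 and 32.2 cpm in wild type and 40 and 40.2 in the mutant. FKF1, a light receptor, stood at 53.1 and 60.4 cpm in wild type and 72.6 and 71.1 in the mutant. CCA1, a morning gene, fell, at 21.9 and 18.7 cpm in wild type and 14.7 and 13.0 in the mutant. Over the 18 clock genes the median difference was -0.01 on the log2 scale, with 8 above zero. Of 14 tested genes of chlorophyll breakdown and senescence 2 rose and none fell, 1 and none without replicate 2, and 4 and 1 without replicate 1. SAG13 stood at 15.1 and 15.3 cpm in wild type and 22.8 and 38.1 in the mutant. WRKY6 stood at 20.9 and 20.9 cpm in wild type and 30.0 and 56.0 in the mutant. Of 13 tested iron genes 3 fell and 1 rose; without replicate 2 none was called, and without replicate 1 it was 4 and 1. The ferritin FER1 stood at 29.9 and 37.5 cpm in wild type and 20 and 19.7 in the mutant. FER4, another ferritin, stood at 8.25 and 14.2 cpm in wild type and 6.31 and 6.11 in the mutant. The transporter OPT3 stood at 378 and 301 cpm in wild type and 245 and 222 in the mutant.

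Starch metabolism gave 3 of 20 lower (14.4% of all tested), 1 without replicate 2 and 7 without replicate 1, with medians of 0.13 in replicate 1 and -0.17 in replicate 2 on the log2 scale. BAM4 was among the 3, at 26.8 and 25.3 cpm in wild type and 19.1 and 18.5 in the mutant. Carbon starvation gave 1 of 17 higher and 2 lower (12.1% and 14.4% of all tested). DIN10 was among the lower, at 291 and 308 cpm in wild type and 155 and 209 in the mutant. Ethylene gave 1 of 12 higher and 2 without replicate 1; the 1 was the synthase ACS6, at 15.6 and 16.8 cpm in wild type and 25.1 and 43.0 in the mutant. The auxin, brassinosteroid and shade list gave 1 of 17 higher, the brassinosteroid enzyme DWF4, and 1 lower, CPD, at 231 and 235 cpm in wild type and 178 and 153 in the mutant. Expansins and xyloglucan enzymes gave 1 of 23 higher and 2 lower, and none lower without replicate 2. Phosphate gave 2 of 13 higher and 3 lower, and 1 lower without replicate 2. Cell division gave 1 of 14 each way, and none without replicate 2. Cuticular wax gave 1 of 13 each way, with KCS1, a fatty acid elongase, lower, at 78.5 and 62.9 cpm in wild type and 46.1 and 39.9 in the mutant. Of 8 tested genes of copper and superoxide dismutases CSD1 fell, at 383 and 407 cpm in wild type and 248 and 292 in the mutant. FSD1, the iron superoxide dismutase, differed within wild type, at 51.0 and 2.65 cpm in wild type and 23.5 and 21.0 in the mutant, and was not called. By description, glutathione transferases gave 9 of 48 higher and 7 lower, and 14 and 7 without replicate 1. Proteasome subunits gave 6 of 18 lower. UDP-glycosyltransferases gave 18 of 105 higher and 8 lower, and 10 and 5 without replicate 2. Jacalin-related lectins gave 2 of 12 lower, and none lower with 2 higher without replicate 2.

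Some markers of leaf cell types passed the test, as did 12.1% (higher) and 14.4% (lower) of all tested genes. Of 9 guard cell markers 2 rose and none fell, and none was called with replicate 1 left out. KAT1, a potassium channel, stood at 15.5 and 19.3 cpm in wild type and 31.0 and 22.7 in the mutant. FAMA, a stomatal factor, stood at 13.5 and 18.7 cpm in wild type and 26.1 and 20.5 in the mutant. By sign only 5 of the 9 guard cell markers lay above zero, in the joint fit and in each mutant library. The summed guard cell markers went from 116.0 and 140.0 cpm in wild type to 149.0 and 132.0 in the mutant. Of 7 tested trichome markers 2 rose, GL2 and TBR, and the sum went from 156.0 and 161.0 cpm in wild type to 210.0 and 195.0 in the mutant. Of 9 epidermis markers 3 fell, LTP1, FDH and ANL2, and the sum went from 679.0 and 678.0 cpm in wild type to 577.0 and 489.0 in the mutant. LTP1, a lipid transfer protein, stood at 268 and 278 cpm in wild type and 219 and 145 in the mutant. Of 6 mesophyll markers 4 fell and none rose, 3 of the 4 being photosynthesis genes counted above. Their sum went from 35200.0 and 37400.0 cpm in wild type to 25600.0 and 25800.0 in the mutant. The part of cell type shares in the photosynthesis and sugar transport results was not tested.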

How the data were processed

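Whole leaves and guard cell preparations were measured by RNA-seq of polyadenylated RNA. The deposited table holds read counts per TAIR10 locus for each of the 12 libraries; per the submitters' processing notes the tools included Trim Galore 0.6.5, cutadapt, FastQC, SAMtools, featureCounts and DESeq2 1.26.0 on TAIR10. The aligner, the annotation release and the strand setting are not given in the sources used here, so overlapping and antisense loci may share counts. Every value below was computed from the deposited counts. Names, gene descriptions and promoter sequences come from RefSeq on TAIR10.1, in which 36632 of 36796 loci were matched.

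Genes were filtered with filterByExpr (minimum count 10), scaled by TMM and fitted in edgeR 4.0.16 (R 4.3.3, limma 3.58.1) by quasi-likelihood over all 12 libraries with 6 group means and no covariate, which gave 6 residual degrees of freedom per gene and a biological coefficient of variation of 8.98%. P-values were adjusted by Benjamini-Hochberg over the 22341 genes tested, and a gene was called under 0.05. Values in cpm are counts scaled by the TMM-corrected library size. Values per mutant library are log2 cpm with a prior count of 2, minus the mean of the 2 wild-type libraries. The code was tested on simulated data. Total counts of 25852946 to 42933997 in the 4 libraries bound the precision of low genes, and 2 libraries a group limit every test.

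Replicate numbers were not used as pairs. The deviations of same-numbered wild-type and mutant control libraries had a correlation of -0.100. Over all pairs of groups it ran from -0.153 to 0.187. With 2 libraries a group these values cannot show whether same-numbered libraries were handled together, which was not tested. The comparison, the 40 gene lists (574 genes) and 10 families were chosen with earlier results of these data known. Genes were named from the 4 ABF genes, up to 5 called genes of each list, FSD1 and 2 sets of largest changes. The first set holds the 10 largest called increases and decreases. These had at least 5 cpm in the higher group and no overlap between mutant and wild-type libraries. The second holds the 8 largest of replicate 2 alone in each direction (at least 5 cpm in that library for risers, in the wild-type mean for fallers). Not all that qualify are named, and genes outside that rule were chosen after their values were seen. Alternatives covered scaling, filter, DESeq2 1.42.0, the libraries in the fit, a replicate block, thresholds and each control library left out. Python 3.11.15, numpy 2.4.6, pandas 2.3.3 and matplotlib 3.10.9 made the summaries and figures.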

Additional observations from a re-analysis of the deposited data

Results flagged for a closer look

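The genotype difference was called in opposite directions in control leaves and in leaves with ABA for 22 of the named genes. Genes picked for calls of opposite sign differ between the 2 by construction, so the edgeR interaction adds no support, and its estimate is given as a description. It is written as control minus ABA on the log2 scale.

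Genes of the ABA response were higher in the mutant at control and lower with ABA. For the dehydrins the difference was 1.576 for COR47, 2.29 for ERD10 and 3.58 for LTI30. For RD26 it was 3.59, for RD29A 2.11, for COR15A 2.43, for COR15B 1.77 and for AFP3 3.17. Among signalling genes it was 3.85 for ABI2, 2.68 for ABI1, 1.32 for HAB2, 2.80 for ABI5 and 3.02 for CYP707A3.

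Outside that response SAG13 (3.45), AT3G22600 (4.15), FKF1 (1.27), SOC1 (1.07) and JAZ1 (1.1) had the same signs. The control value of AT3G22600 rests on mutant replicate 2. The reverse, lower in the mutant at control and higher with ABA, held for GASA6 (-5.43), GASA4 (-3.04), DIN10 (-1.62) and NRT1.1 (-1.34).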

How the results depend on the processing

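Of 5930 called genes, 3 scaling alternatives gave 5916 (median-ratio factors), 5914 (upper quartile) and 6464 (total counts, with 4789 higher and 1675 lower), no filter gave 6018 and DESeq2 4896. A fit of the 4 control leaf libraries alone called 1984, with 929 higher and 1055 lower. An adjusted p under 0.01 left 2792, with 1207 higher and 1585 lower, and a size of at least 2-fold left 806, with 597 and 209. Leaving out 1 library gave 3113 to 6155 calls, 1356 to 2976 higher and 1757 to 3179 lower, the fewest without wild-type replicate 2 (3602 without wild-type replicate 1). A replicate block gave 5917 calls, and the crossed pairing, chosen after seeing the data, 6262. The main fit used no pairing by number.

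Genes changed in both replicates were 1898 at 1.5-fold, 110 at 3-fold and 276 with a mean of at least 50 counts. Genes of replicate 2 alone were 1998, 140 and 297 under the same settings, and 256 with replicate 1 within 0.25. Genes of replicate 1 alone were 1123, 32, 64 and 102. The list counts were repeated under 4 settings chosen after seeing the data. Of the salicylic acid genes 1 to 24 were called higher when a mutant library was left out, 11 by total counts and 0 with 4 libraries. For protein folding these were 2 to 9 and, with 4 libraries, 0, and ABA effectors gave 5 with 4 libraries. The smaller fit has fewer libraries to estimate the spread from; other causes were not tested.

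Of 166 named genes 148 kept direction and side of the threshold by total counts and 99 with 4 libraries. With 1 library left out the log2 difference changed sign for 17 genes and ran for CYP79F1 from -0.65 to 0.39, FMO1 from -1.01 to 1.51, PAP1 from -0.76 to 1.87, SARD1 from -0.23 to 1.27, ICS1 from -0.12 to 1.86, PR1 from -1.31 to 1.71, JAL23 from -1.56 to 0.21, WRKY46 from -0.39 to 2.19, JR1 from -1.24 to 0.27, AT3G28510 from -0.39 to 2.45, APR1 from -0.03 to 0.67, FSD1 from -1.20 to 3.07, MYB29 from -0.49 to 0.56, PBS3 from -0.79 to 1.81, VSP2 from -1.20 to 1.12, CBP60G from -0.04 to 1.79 and RAB18 from -0.09 to 0.40. FSD1 turned to 0.03 under the replicate block and CYP79F1 to 0.10 by total counts.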
